A study of Mus musculus with 12 samples.

Results

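The samples described are the 6 control samples of mouse tongue epithelium, out of 12 samples in the series, chosen by their titles (PBS 1 to PBS 6). All came from Langerin-DTR mice, a line whose langerin-expressing cells also make the human diphtheria toxin receptor. These controls carry the transgene but were injected with PBS alone, 2 times a week, starting at 2 weeks of age and ending in adulthood. The labels used here name no strain, sex or adult age and do not say whether each sample was a separate mouse, so the spread reported is a spread between samples and may be partly technical. Dispase (4 mg/ml) was used to loosen the epithelium from the tongue, and the sheet was minced and digested with collagenase and DNase for 25 min at 37 °C before RNA was prepared and sequenced with a stranded mRNA kit. No comparison with the other group of the series is made here.

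The surface of the tongue is a stratified squamous epithelium. Dividing cells of the basal layer, marked by keratins 5 and 14, rest on a basement membrane, and their daughters move up into suprabasal layers that fill with keratins 4 and 13 before they flatten and are shed. The back of the mouse tongue also bears filiform papillae, small cornified cones that make keratins otherwise known from hair and nail, together with envelope proteins such as loricrin and repetin. Keratins assemble as pairs of a type I and a type II chain, which is why Krt13 (type I) is usually discussed with Krt4 (type II), and Krt14 with Krt5.

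Total gene counts per library ran from 21226436 to 30282813, so that 3 counts, taken as the floor of detection, corresponded to 0.0985 to 0.137 CPM, the counts in every 1000000 counts of a library. CPM values are scaled with TMM, which sets most genes to a common level between libraries, and levels that are compared between genes are given as TPM, which also divide by transcript length and sum to 1000000 in each library. By median absolute log2 deviation from the median of the 6 libraries, PBS 5 stood furthest apart (0.133), followed by PBS 2 (0.117) and PBS 6 (0.0813). Some of the shares that PBS 5 moved are given with and without it, and other values only with it. The first principal component held 41.3% of the variance. On it PBS 5 lay at 25.6, PBS 6 at 11.7, PBS 2 at -17.2, and PBS 1, PBS 3 and PBS 4 between -8.68 and -5.04. No pair of libraries was a repeat of the same library, since the chi-square per degree of freedom between their counts was at least 7.18. Counts of 20605 to 21823 genes were above 0 in a library (20277 to 21008 at equal depth), 11714 genes reached 1 CPM in all 6 libraries and 80 reached 1000 CPM. Protein-coding genes took 99.1% of the counts.

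A small number of genes of differentiated epithelium held a large share of the RNA, led by Krt13 and Krt4. Krt13 (ENSMUSG00000044041) took 5.82, 6.08, 6.11, 6.09, 6.79 and 6.22% of all gene counts in PBS 1 to PBS 6, a mean of 6.19 ± 0.326% (SD, n = 6, as for all means below). Krt4 (ENSMUSG00000059668) took 5.08, 4.83, 4.73, 4.73, 4.83 and 4.85%. Both genes held rank 1 and rank 2 in every library. Rptn (ENSMUSG00000041984), which encodes the papilla protein repetin, held rank 3 in every library at 2.33 ± 0.174%, with 2.66% in PBS 2 and 2.17 to 2.33% in the others. Lor (ENSMUSG00000043165), which encodes the envelope protein loricrin, took 1.53% in PBS 5, 1.26% in PBS 6 and 0.928 to 1.07% in the other 4 libraries, so that it was more unequal between libraries than the 3 genes above it.

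The order of the most abundant genes was stable at the top. Of the 10 genes with the most counts in a library, 8 were shared by all 6 libraries: Krt13, Krt4, Rptn, Lor, Krt76, Krt6a, mt-Co1 and Dsp. Of the top 100 genes, 88 were shared by all libraries. The 10 leading genes held 19.3 ± 0.803% of counts and the 100 leading genes held 39.6 ± 0.931%. To reach 50% of all counts took 276 to 290 genes in 5 libraries and 230 genes in PBS 5. The other genes among the 25 with the largest shares were of 3 kinds. Some encode structural and junction proteins: Tchh (trichohyalin, which hardens hair and papilla cells), Krt78, Krt6b, Krt16, Krt14, and Perp, a membrane protein of desmosomes. A second kind belongs to the surface and its proteolysis: Tgm3, a transglutaminase that crosslinks the envelope, the secreted protein gene Dmkn, the serpins Serpinb3a and Serpinb12, and Asprv1, a skin-type aspartic protease. The remaining ones were the translation factor gene Eef1a1, Ada (adenosine deaminase, an enzyme of purine breakdown) and the mitochondrial genes mt-Cytb, mt-Nd5, mt-Nd1 and mt-Nd2.

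**Figure D1:**
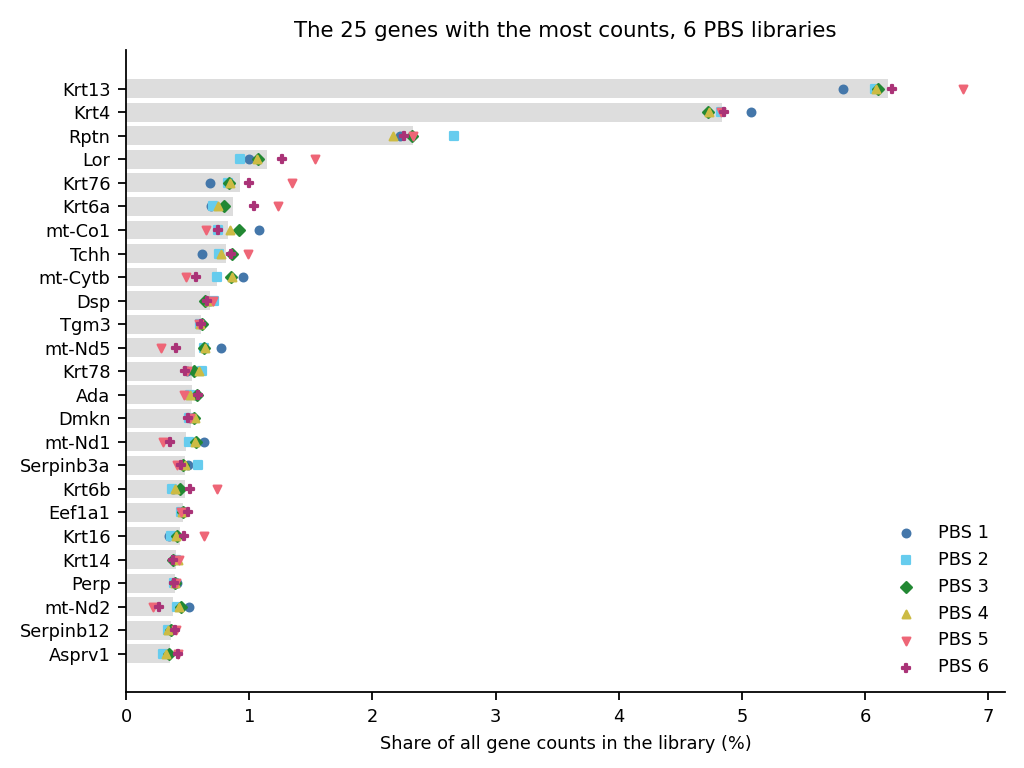
Share of all gene counts (%) of the 25 genes with the largest mean share among genes with an established symbol; grey bars are means of the 6 PBS libraries and symbols are single libraries. Krt13 and Krt4 lead in every library, and PBS 5 (pink) lies to the right for Krt13, Lor, Krt76, Krt6a, Krt6b and Krt16 and to the left for the mitochondrial genes.

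Per unit of transcript length the same 2 keratins led. Krt13 stood at 80620 ± 4015 TPM and Krt4 at 48941 ± 1522 TPM. Krt13 was 1.65-fold above Krt4, in 6 of 6 libraries (log2 ratio 0.72 ± 0.09; two-sided exact sign-flip permutation test p = 0.0312, adjusted p = 0.0402 over 18 gene pairs). With 6 libraries 0.0312 is the smallest p this test can give. The 18 pairs were chosen with earlier results of these data known, so their p-values describe the pairs and are no independent test. The next levels were those of mt-Cytb (13951 ± 3377 TPM), Lor (13833 ± 2618 TPM), Rptn (12107 ± 1038 TPM), mt-Co1 (11574 ± 2102 TPM), Fam25c (11533 ± 897 TPM), mt-Nd1 (11013 ± 2911 TPM) and Krtdap (9701 ± 925 TPM), a small secreted protein of differentiating keratinocytes. Krt4 exceeded mt-Cytb in 6 of 6 libraries, but from mt-Cytb to Krtdap each gene exceeded its neighbour in 2 to 5 of the 6 libraries, so their order is not separated beyond the spread. Rptn, with the longer transcript, took more counts than Lor, but per length Rptn over Lor was -0.18 ± 0.31 on the log2 scale (exact permutation adjusted p = 0.281).

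Promoter sequences of 3 of the leading genes are shown because they carry short motifs that were more frequent among the abundant genes. Each runs from 250 bases before to 50 after a transcription start that RefSeq lists on GRCm38.p6. The strand of the gene is given 5′ to 3′. Capitals mark TATAAA (the core of a TATA box) or TGANTCA (N being any base). TGANTCA takes in the core of an AP-1 site, in which N is C or G, but also words with A or T there. The match in Lor, TGAGTCA, is such a core, while those in Krt13 and Rptn have A or T at N.
Krt13, chr11:100121517-100121816, minus strand: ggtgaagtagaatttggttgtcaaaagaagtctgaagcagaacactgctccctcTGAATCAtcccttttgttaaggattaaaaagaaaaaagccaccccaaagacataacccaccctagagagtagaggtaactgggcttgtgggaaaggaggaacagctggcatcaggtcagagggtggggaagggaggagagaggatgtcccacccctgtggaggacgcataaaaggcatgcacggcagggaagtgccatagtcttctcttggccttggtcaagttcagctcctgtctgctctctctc
Rptn, chr3:93393449-93393748, plus strand: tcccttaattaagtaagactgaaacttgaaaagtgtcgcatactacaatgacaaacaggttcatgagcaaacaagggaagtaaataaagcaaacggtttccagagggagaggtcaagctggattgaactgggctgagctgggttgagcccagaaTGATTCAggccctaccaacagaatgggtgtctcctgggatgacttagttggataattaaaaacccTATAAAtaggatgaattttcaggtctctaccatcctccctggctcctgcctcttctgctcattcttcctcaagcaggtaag
Lor, chr3:92083093-92083392, minus strand: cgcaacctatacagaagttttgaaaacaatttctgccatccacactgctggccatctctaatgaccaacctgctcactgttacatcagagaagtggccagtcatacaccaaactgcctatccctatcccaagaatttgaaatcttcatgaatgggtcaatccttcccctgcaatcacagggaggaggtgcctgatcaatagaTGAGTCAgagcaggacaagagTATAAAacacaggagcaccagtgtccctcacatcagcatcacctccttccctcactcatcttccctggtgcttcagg
TATAAA began 31 bases before the listed start in Rptn and 27 before it in Lor, and was absent from the Krt13 sequence. The TGANTCA match began 196 bases before the start in Krt13, 96 in Rptn and 48 in Lor. The promoter of Krt36, which was read as well and is not shown, held neither motif. On either strand TATAAA occurred in 26 of the 71 promoters (36.6%) found for the 100 leading genes with an established symbol. Mitochondrial genes were left out of these 100, and Krt4 had no promoter entry. TATAAA occurred in 14.2% of the promoters of all 27025 genes with an entry, expressed or not. TGANTCA, which reads the same on both strands, occurred in 19.7% of the 71 promoters and in 7.93% of all. On the strand of the gene and 40 to 16 bases before the start, TATAAA occurred in 21.1% of the 71 promoters and 2.22% of all. These are matches of letters and not tested sites, and the 2 motifs do not overlap each other in the 3 sequences.

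Keratins as a family held more of the RNA than any other family counted. The 54 keratin genes took 16.9 ± 1.29% of counts (19.4% in PBS 5, 15.9 to 17.3% in the others; 16.4 ± 0.489% without PBS 5), and 36 of them reached 1 CPM in all libraries. Krt13 and Krt4 made up 65.3 ± 2.98% of the keratin counts. By comparison, the cytosolic ribosomal protein genes took 3.71 ± 0.206%, the fused S100 genes, to which Rptn and Tchh belong, 3.47 ± 0.241%, the serpins 1.21 ± 0.0536%, the Lce genes 0.722 ± 0.0682%, the keratin-associated protein genes 0.709 ± 0.158% and the Sprr genes 0.324 ± 0.0697%. Shares of counts favour long transcripts: as a share of TPM the fused S100 genes came to 1.74% and the ribosomal protein genes to 7.07%. Krt6a and Krt6b, the Lce and Sprr2 genes and the keratin-associated protein genes have close copies, and the split of reads between copies is uncertain.

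The basal layer was present at a level well below that of the suprabasal keratins, and all 17 genes of the basal list reached 1 CPM in every library. Krt14 (ENSMUSG00000045545) stood at 3734, 3995, 3760, 4161, 4673 and 3769 CPM in PBS 1 to PBS 6. Krt5, its partner, was at 3052 to 3810 CPM, Krt15 at 998 to 1365 CPM and Col17a1, a collagen of the hemidesmosomes that anchor basal cells, at 860 to 1028 CPM. The libraries lay close together, with the highest value 1.25 times the lowest for Krt14 and Krt5. Per length Krt14 was 1.58-fold above Krt5 in 6 of 6 libraries (5087 ± 245 and 3229 ± 331 TPM; exact permutation adjusted p = 0.0402). Krt13 was 15.8-fold above Krt14 and Krt4 was 15.2-fold above Krt5, again in 6 of 6 libraries each (exact permutation adjusted p = 0.0402 for both). In bulk RNA such ratios mix the number of cells in a layer with the RNA content per cell, and fewer cells of a type and less RNA per cell cannot be told apart. The integrin chains of the hemidesmosome, Itgb4 (95.7 ± 8.12 TPM) and Itga6 (95.1 ± 9.99 TPM), had a log2 ratio close to 0 (mean 0.01 ± 0.11, exact permutation adjusted p = 0.875), while by counts alone Itgb4 was higher in 6 of 6 libraries (log2 ratio 0.54, exact permutation adjusted p = 0.0402).

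In the suprabasal list all 20 genes reached 1 CPM in all libraries and 19 reached 100 CPM. The list took 15.4 ± 0.648% of counts (15.1 ± 0.239% without PBS 5). Behind Krt13 and Krt4 came the inducible keratin genes Krt6a, at 6631, 6931, 7853, 7352, 13418 and 10317 CPM, and Krt16, at 3404 to 6891 CPM, and the desmosomal plaque gene Dsp at 6341 to 7700 CPM. Krt6a and Krt16 were highest in PBS 5 and second highest in PBS 6, whereas Dsp differed by only 1.21 times between the highest and the lowest library. Krt16 was below Krt6a per length in 6 of 6 libraries (log2 ratio -0.37 ± 0.09, exact permutation adjusted p = 0.0402). Of the desmosomal cadherin genes, Dsg1a, a cadherin of upper layers, stood at 852 ± 38.5 TPM and Dsg3, a cadherin of lower layers, at 158 ± 17.9 TPM, a 5.43-fold difference in 6 of 6 libraries (exact permutation adjusted p = 0.0402). Reads of Dsg1a can be shared with its copies Dsg1b and Dsg1c.

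Cornified envelope genes were abundant but unequal among themselves. The list took 6.93 ± 0.324% of counts, and 26 of its 31 genes reached 1 CPM in all libraries while 5 stood near 0. Rptn, Lor, Tchh (5957 to 10770 CPM) and Tgm3 (5831 to 6418 CPM) led it. The other large fused S100 genes were far lower per length: Hrnr (hornerin) stood at 145 ± 10.8 TPM and Flg (filaggrin) at 125 ± 17.4 TPM, which puts Rptn 83.5-fold and 97.5-fold above them (6 of 6 libraries each, exact permutation adjusted p = 0.0402). The size of the Flg difference rests on the transcript length: by coding length Rptn was 8.91-fold above Flg and by counts 27.9-fold, in 6 of 6 libraries under each. Flg2, the filaggrin-2 gene of epidermis, had 21 counts over the 6 libraries, and Sprr2a1 had 2. Sprr2d and Sprr2e were also near 0, at means of 1.11 and 0.253 CPM, and so was the protease gene Klk6 at 0.445 CPM. Sprr1a stood at 810, 555, 993, 1042, 395 and 787 CPM, so PBS 5 and PBS 2 were lowest. Against Sprr1b its log2 ratio per length was 0.79 ± 0.67, higher in 5 of 6 libraries (exact permutation adjusted p = 0.112).

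Keratins of hair and nail were present at a level close to that of the basal keratins. Of the 13 hair-type keratin genes with counts, 12 reached 1 CPM in every library and 11 reached 100 CPM, and Krt82 alone stood near 0 (0.403 CPM). Krt85 was not analysed here. Krt84 was at 3045, 3160, 3012, 3371, 4861 and 3495 CPM and Krt36 at 2860, 2495, 2613, 2667, 5776 and 3630 CPM, followed by Krt87 (913 to 1881 CPM) and Krt86 (461 to 1090 CPM). For each of these 4 genes PBS 5 was the highest library. The list took 1.11 ± 0.271% of counts, or 1.00 ± 0.0924% without PBS 5. Summed per length, its genes reached 1.25 ± 0.337 times the level of Krt5, Krt14 and Krt15, with 0.939 as the lowest and 1.87, in PBS 5, as the highest library. Per length Krt36 exceeded Krt84 1.42-fold in 6 of 6 libraries (exact permutation adjusted p = 0.0402), while by counts alone the ratio was -0.11 on the log2 scale. The keratin-associated proteins, which crosslink hair keratins, had 24 of 58 genes at 1 CPM in all libraries.

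Of the epidermal keratin pair only the type I chain was abundant. Krt10 stood at 2274 ± 427 TPM and Krt1 at 11.7 ± 2.66 TPM, a 196-fold difference (6 of 6 libraries, exact permutation adjusted p = 0.0402), and Krt2, Krt9 and Krt77 were each below 0.3 CPM on average (0.203, 0.162 and 0.217 CPM). Krt13 was 35.9-fold above Krt10 in 6 of 6 libraries (exact permutation adjusted p = 0.0402). Keratins of simple, one-layered epithelia were low: Krt7 was at 5.61 CPM, Krt19 at 3.36, Krt8 at 1.69, Krt18 at 1.44 and Krt20 at 0.0557 CPM, the last with 8 counts in all. Krt8 and Krt18, which pair in simple epithelia, had a log2 ratio that did not pass the test (-0.21 ± 0.76, exact permutation adjusted p = 0.529), at levels where a library held few counts.

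**Figure D2:**
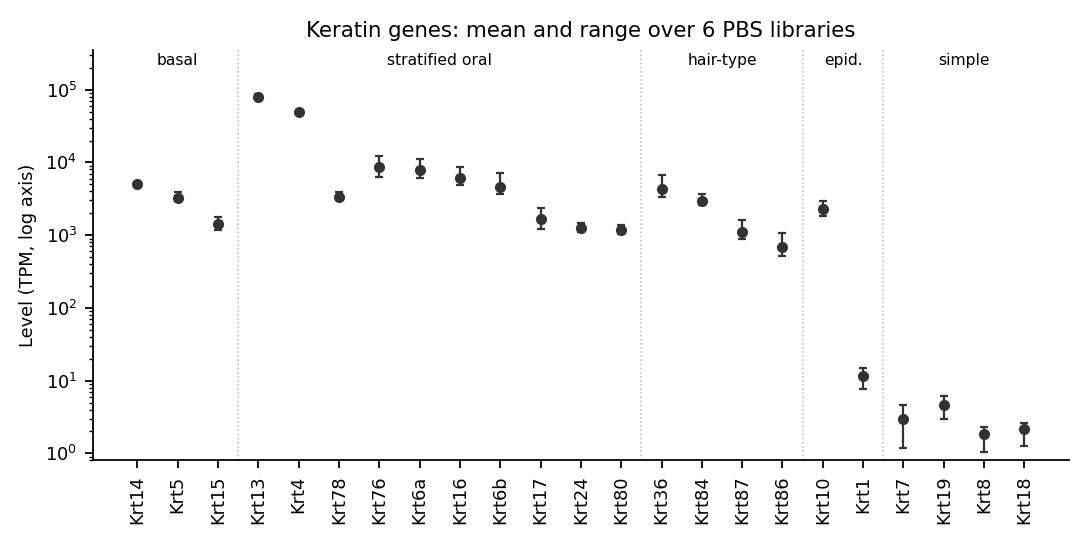
Level of 23 keratin genes (TPM, log axis) as the mean of 6 PBS libraries, with bars from the lowest to the highest library. Krt13 and Krt4 stand above all others, the hair-type keratins Krt36 and Krt84 lie near the basal keratins Krt14 and Krt5, and Krt1 and the simple-epithelium keratins lie far lower.

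Genes that hold the sheet together and shape its surface took steady shares of the counts, though in PBS 5 their median deviation from the median of the 6 libraries was 0.27 log2 units for the junction list, 0.17 for the desmosome list and 0.16 for proteases and inhibitors. In the desmosome list 14 of 15 genes reached 1 CPM in all libraries, and the list took 2.46 ± 0.0893% of counts. Dsp, Perp (3796 to 4387 CPM), Pkp1 (3018 to 4157 CPM) and Dsc1 (2385 to 2945 CPM) led it, and Pkp2, the plakophilin of simple epithelia and heart, stood at 0.481 CPM. Among junction genes the connexin genes Gja1 (1198 to 1447 CPM) and Gjb2 (676 to 907 CPM) were the highest, while Cldn3 and Cldn7 were near 0 (0.268 and 0.184 CPM). Proteases and their inhibitors took 2.16 ± 0.0512%. After Serpinb3a (4447 to 5707 CPM) and Serpinb12 (3309 to 4402 CPM) came Asprv1 (2906 to 4583 CPM) and Spink5, an inhibitor of the kallikreins that shed surface cells (2452 to 3284 CPM).

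The list of defence genes of the resting mucosa was led by a few genes. The protease inhibitor gene Slpi stood at 1693 to 2378 CPM, Ly6g6c at 1123 to 1563 CPM, Ly6d at 834 to 1058 CPM and the beta-defensin gene Defb4 at 803 to 983 CPM. The calprotectin genes, which are abundant in inflamed epithelium and in neutrophils, were low. S100a8 stood at 1.00, 1.94, 5.09, 2.22, 1.04 and 1.18 CPM and S100a9 at 0.410, 0.421, 3.82, 1.80, 0.259 and 1.02 CPM. PBS 3 was highest for both genes, and S100a9 was below S100a8 per length in 6 of 6 libraries (log2 ratio -1.13 ± 0.89, exact permutation adjusted p = 0.0402). PBS 1, PBS 2 and PBS 5 held few counts of S100a9, so the size of this ratio is uncertain. Camp, which encodes the antimicrobial cathelicidin, had 0 counts, which allows up to 0.0985 to 0.137 CPM in a library. Floors of this kind cover counting error only. Of 8 mucin genes 1, Muc15 (80.4 to 104 CPM), reached 1 CPM in all libraries.

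Transcription factors of stratified epithelium took a steady summed share of counts, while single genes varied more. Of 26 genes on the list 25 reached 1 CPM in all libraries, and the list took 0.702 ± 0.0128% of counts. In PBS 5, 3 of the 24 list genes whose mean reached 10 CPM were at least 0.5 log2 units above the median of the 6 libraries. In PBS 2, 1 of them was as far below it. Of all 7983 such genes 2.25% were that far above in PBS 5 and 0.639% that far below in PBS 2. Klf4, a factor of differentiating layers, led with 1256 to 1779 CPM, followed by Hopx (606 to 725 CPM), Klf5 (474 to 647 CPM) and Klf3 (506 to 575 CPM). Gata3, which is expressed in epidermis and hair follicle, was near the floor at 0.218 CPM. The homeobox genes Pitx1 (356 to 564 CPM) and Barx2 (212 to 265 CPM), which were chosen after their values were seen, are known from the developing oral region. Grhl3, a factor of late differentiation, was 1.72-fold above Trp63, the factor of basal cells, per length of the longest transcript (230 ± 18.6 and 135 ± 21.6 TPM, 6 of 6 libraries, exact permutation adjusted p = 0.0402). That order depended on the length used: by coding length the log2 ratio was 0.01 and by counts -0.17.

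Proliferation and general metabolism were measurable in every library. All 20 cell cycle genes reached 1 CPM in all 6 libraries. Mki67 stood at 223, 322, 257, 251, 185 and 186 CPM and Top2a at 124, 168, 137, 149, 114 and 116 CPM, with PBS 2 highest and PBS 5 lowest for both. Among translation genes Eef1a1 (4351 to 4999 CPM), Pabpc1 (1994 to 2517 CPM), Eef2 (1992 to 2362 CPM) and Tpt1 (1643 to 1779 CPM) led. Of glycolytic genes Aldoa was highest (553 to 670 CPM). Aldh3a1, an aldehyde dehydrogenase abundant in surface epithelia, stood at 2479 to 2856 CPM and Gsto1, a glutathione transferase, at 762 to 967 CPM. Among lipid genes the fatty acid carrier gene Fabp5 (1659 to 2095 CPM) and the lipoxygenase gene Alox12b of the skin barrier (892 to 1009 CPM) led. Heat shock genes were led by Hsp90ab1 (1337 to 1690 CPM) and Hspb1 (845 to 1299 CPM).

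Mitochondrially encoded genes were unequal between libraries. They took 4.46, 3.43, 3.87, 3.75, 2.18 and 2.61% of counts in PBS 1 to PBS 6, a mean of 3.38 ± 0.845% (3.62% without PBS 5). PBS 5 and PBS 6 were the lowest. Of the 13 genes, mt-Co3, mt-Atp6, mt-Co2, mt-Nd3 and mt-Nd4l were nearly uncounted (0.0766 to 11.4 CPM) beside mt-Co1 at 8264 CPM. Mitochondrial genes have close copies in the nuclear genome, so the split of reads is uncertain, and the share is that of the reads counted, not of all mitochondrial RNA.

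Immediate-early genes, which cells switch on within minutes of a stimulus, were expressed in all libraries. Of 20 such genes, 19 reached 1 CPM in all libraries, led by Jund (191 to 383 CPM), Fosl2 (209 to 283 CPM), Junb (163 to 255 CPM) and Klf6 (153 to 182 CPM). Fos stood at 7.48, 7.66, 8.40, 7.30, 8.64 and 21.8 CPM. For Fos PBS 6 was thus far above the other libraries. Dusp1 (122 CPM in PBS 6, 47.5 to 65.1 in the others) and Fosb (15.5 CPM in PBS 6, 5.23 to 11.5 in the others), chosen after their values were seen, were also highest there. The list sum was highest in PBS 5 at 1719 CPM, with 1662 CPM in PBS 6. In each of PBS 5 and PBS 6, 2 of the 15 list genes whose mean reached 10 CPM were at least 0.5 log2 units above the median of the 6 libraries. Of all 7983 such genes 2.25% were in PBS 5 and 0.0376% in PBS 6.

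Cells other than keratinocytes left small traces. Langerhans cells, the antigen-presenting cells of this epithelium and the cells that the transgene marks, were seen through Cd207 (langerin) at 2.78, 2.23, 2.95, 3.25, 2.82 and 2.17 CPM, 53 to 92 counts a library. Cd74, the invariant chain of class II MHC, was more abundant at 93.7, 56.7, 81.3, 94.5, 99.1 and 90.3 CPM, with PBS 2 lowest. Of the 14 Langerhans list genes 12 reached 1 CPM in all libraries, but Mfge8 (63.7 to 80.2 CPM) and Epcam (52.7 to 60.8 CPM), which led with Cd74 and H2-Ab1 (33.8 to 54.4 CPM), are made by other cells too. In PBS 2, 3 of the 8 list genes whose mean reached 10 CPM were at least 0.5 log2 units below the median of the 6 libraries, which 0.639% of all 7983 such genes were.

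Markers of lymphocytes, mast cells and neutrophils were low, and 2 genes of the macrophage list were clearly above the floor. The T and NK cell list summed to 10.4 to 15.5 CPM over 14 genes, of which 3 reached 1 CPM in all libraries. Thy1, which is also on the stromal list, gave 41.7% of the counts of the list. The defining genes Cd3e (0.278 CPM), Cd3d (0.0856 CPM), Cd4 (0.0442 CPM) and Cd8a (0.0305 CPM) were at or near 0. The B cell list summed to 0.482 to 0.847 CPM, with Mzb1 at 0 counts. Mast cell genes Tpsab1 and Ms4a2 and the neutrophil gene Ly6g had 0 counts, and Kit, which melanocytes also make, gave most of the mast cell sum (4.96 CPM). The neutrophil list summed to 3.56 to 12.8 CPM, led by Cxcr2 (2.22 to 3.78 CPM) and, in PBS 3 where the sum was highest, by S100a8. The macrophage list summed to 26.1 to 32.6 CPM, of which Cd68 (11.4 to 14.8 CPM) and Csf1r (7.95 to 10.3 CPM) gave most, while Cd163 and Fcgr1 were near 0 (0.0843 and 0.0118 CPM). Csf1r is on the Langerhans cell list as well, so its level does not single out macrophages.

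Lists for cells of the tissue below the epithelium gave mixed values, with many defining genes near 0 and single genes abundant. Of the 15 stromal list genes 9 reached 1 CPM in all libraries. Dcn, a matrix proteoglycan gene, stood at 240, 284, 272, 279, 324 and 310 CPM. The fibrillar collagen genes Col1a1 (0.895 CPM) and Col1a2 (0.696 CPM), Postn (0.0787 CPM) and Lum (0.145 CPM) were near 0. The list sum of 339 to 417 CPM was mostly Dcn (76.3%). Endothelial genes summed to 6.30 to 13.1 CPM, led by Pecam1 at 7.98, 8.71, 8.91, 9.49, 3.74 and 3.22 CPM, whereas Cdh5 and Kdr had 8 and 3 counts in all. In the muscle list, which summed to 190 to 312 CPM with 3 of 18 genes at 1 CPM in all libraries, Tpm2 stood at 178 to 233 CPM, and the fast muscle myosin gene Myh4 had 352, 86, 303, 117, 3 and 29 counts. Acta1, skeletal muscle actin, followed the same order at its ends, with 11.2 CPM in PBS 1, 0.519 CPM in PBS 5 and 0.919 CPM in PBS 6. PBS 5 and PBS 6 were thus the lowest for Pecam1, Myh4, Tpm2 and the mitochondrial share, with PBS 1 the highest for Myh4 and the mitochondrial share. The part of muscle RNA in the mitochondrial values was not tested. Haemoglobin genes were led by Hbb-bs at 9.17, 10.6, 23.3, 22.5, 14.9 and 22.6 CPM, lowest in PBS 1 and PBS 2.

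Taste, nerve, gland and pigment markers gave little signal. In the taste cell list 5 of 22 genes reached 1 CPM in all libraries; Itpr3 (162 to 215 CPM) and Pou2f3 (12.5 to 16.7 CPM) led, but the taste transduction genes Trpm5 (0.250 CPM), Gnat3 (0.577 CPM) and Tas1r2 (0.107 CPM) were low. Neuronal genes Calca and Prph had 0 counts, and 10 of the 16 genes of that list stayed below 3 counts in each library, while Tubb3 stood at 59.6 to 90.2 CPM. In the glia list Erbb3 (162 to 203 CPM) and Mbp (54.6 to 77.3 CPM) led, but Sox10, which defines glia, had 1 count. The Merkel cell list summed to 99.4 to 116 CPM, of which Sox2 (73.9 to 84.5 CPM), a factor other epithelial cells also make, gave 73.6%, followed by Isl1 (12.4 to 27.4 CPM) and the touch channel gene Piezo2 (5.89 to 8.67 CPM), whereas Atoh1 and Krt20 had 2 and 8 counts. Salivary genes summed to 0.445 to 3.71 CPM, with Prr27, Smr3a and Zg16 at 0 counts, the pigment cell gene Tyrp1 was at 0 counts, and so were the fat cell genes Adipoq and Cidec.

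**Figure D3:**
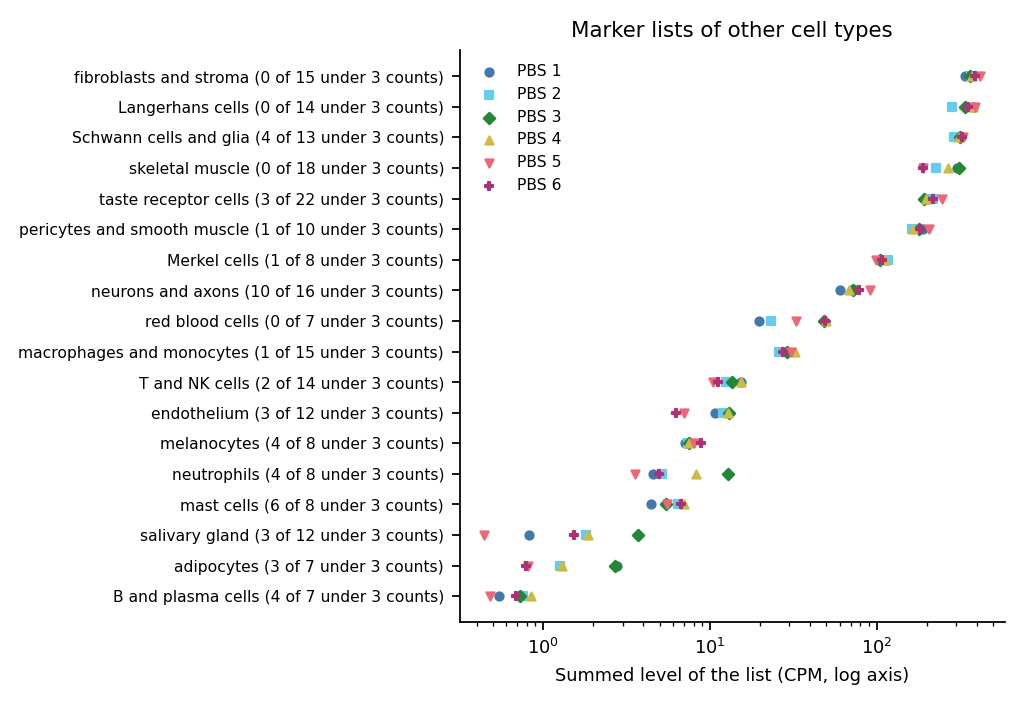
Summed level of marker lists of other cell types (CPM, log axis), 1 symbol a library, with the number of list genes below 3 counts in every library in brackets. Stromal, Langerhans and glial lists sum to about the same level, with Dcn at 76.3%, Cd74 at 24.4% and Erbb3 at 55.8% of the sum of their own list, muscle and endothelial sums are low in PBS 5 and PBS 6, and the gland, fat and B cell lists lie at the bottom.

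Factors that attract or sustain nerve fibres, the stated interest of the study, were expressed at low to moderate levels. Of 18 genes 13 reached 1 CPM in all libraries and none reached 100 CPM in all of them. The guidance genes Sema3f (99.6 to 128 CPM) and Efnb2 (68.9 to 89.4 CPM), the growth factor gene Ptn (27.1 to 45.7 CPM) and Efna1 (28.7 to 41.5 CPM) led. Sema3a and Ntn1 were near the floor (0.0461 and 0.104 CPM). The neurotrophin genes Ntf3 (6.58 ± 0.658 CPM), Bdnf (4.18 ± 0.529 CPM) and Ntf5 (3.06 ± 0.390 CPM), chosen after their values were seen, were measured in every library.

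The 6 libraries agreed closely for most genes. Over the 13133 genes kept for this purpose the median coefficient of variation (CV) of CPM was 10.4%, where counting error alone would give 4.77%. Over the 7983 genes whose mean reached 10 CPM it was 8.29%, and 65.5% of them had a CV under 10%, while 5 genes exceeded 50%. The common biological coefficient of variation from edgeR was 10.6%. Log2 CPM values of 2 libraries correlated across genes with Pearson's r of 0.987 to 0.996, a description only, since all points share the same libraries and genes are not replicates. The median absolute log2 deviation of a library from the median of the 6 was 0.0563 in PBS 3, 0.0646 in PBS 1, 0.0733 in PBS 4, 0.0813 in PBS 6, 0.117 in PBS 2 and 0.133 in PBS 5.

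Several gene groups stood apart in PBS 5. Of 7983 genes, 180 (2.25%) were at least 0.5 log2 units above the median of the 6 libraries in PBS 5 and 46 (0.576%) were as far below it. The shares above and below were 0.1% and 0.0752% in PBS 1, 0.326% and 0.639% in PBS 2, 0.0626% each in PBS 3, 0.0752% and 0.0251% in PBS 4, and 0.0376% and 0.288% in PBS 6. Among hair-type keratins 11 of the 12 genes whose mean reached 10 CPM were above by that much, and Krt32 (58.4 to 69.8 CPM), named after its values were seen, was not. The same held for 21 of 21 keratin-associated protein genes and 4 of 19 Lce genes. It also held for 19 of 32 keratins, a family that includes the hair-type keratins just counted. The Sprr genes, with Sprr3 at 59.2% of their counts, took 0.208% of counts in PBS 5 and 0.277 to 0.388% in the others. Their median deviation was -0.17 in PBS 5 and also -0.17 in PBS 6. Of 6 Sprr genes whose mean reached 10 CPM, 2 were at least 0.5 below in PBS 5 and 1 as far above. In PBS 5 the median deviation was 0.85 for the hair-type keratins, 0.81 for the keratin-associated proteins and 0.60 for all keratins, hair-type ones included. It was 0.28 for the cornified envelope list, but 0.00 for the basal list and 0.03 for ribosomal proteins. Mitochondrial genes were on the other side, with 8 of 9 genes at least 0.5 below (median -0.73), and PBS 6 showed this too, with 7 of 9 genes (median -0.57), a depth reached by 0.288% of all genes there. With libraries scaled by their totals alone the median of all genes in PBS 5 shifted to -0.10, and the medians became 0.70 for the hair-type keratins, -0.15 for the basal list and -0.87 for the mitochondrial genes.

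Base composition moved with the library. In the fifth of genes with the lowest GC content the median deviation of PBS 5 was -0.11 and in the fifth with the highest it was 0.11, whereas in PBS 2 these values were 0.07 and -0.09. Relative to genes of like GC content the median in PBS 5 was 0.74 for the hair-type keratins, -0.10 for the basal list and -0.59 for the mitochondrial genes. Over 5 classes of transcript length the median deviation ran from 0.04 in the shortest to -0.02 in the longest in PBS 5, and from -0.07 to 0.04 in PBS 2. The part of base composition and length in these results was not tested. PBS 2 stood on its own by the second principal component (21.2% of the variance) and had the highest cell cycle list (median deviation 0.31), with 26 genes (0.326%) at least 0.5 above and 51 genes (0.639%) at least 0.5 below the median.

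**Figure D4:**
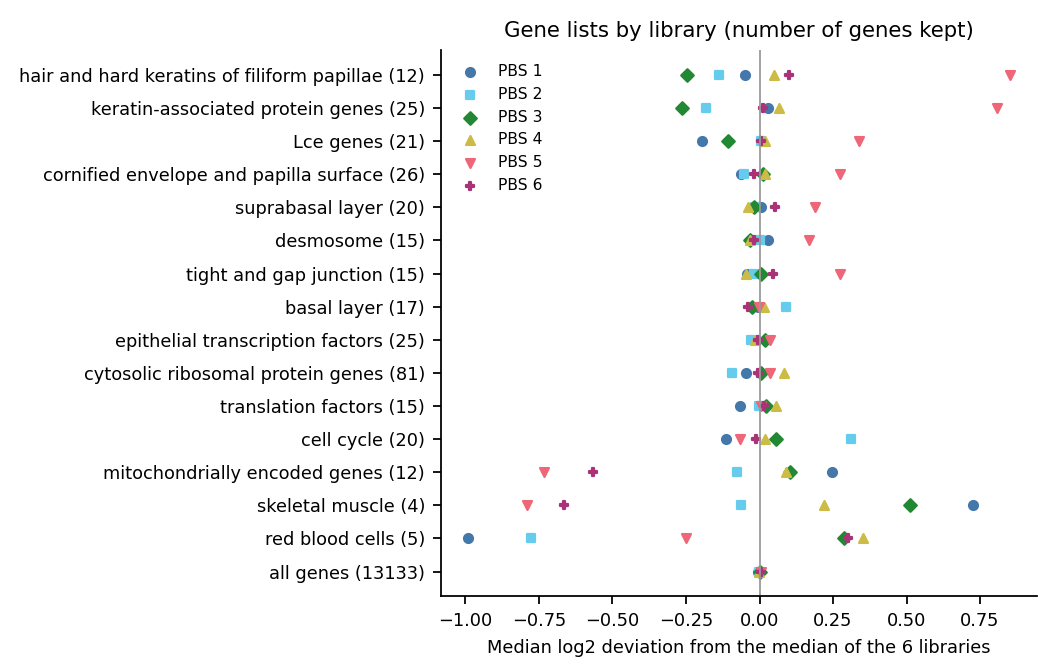
Median log2 deviation of 15 gene lists and of all genes from the median of the 6 PBS libraries, 1 symbol a library, with the number of genes in brackets. PBS 5 lies at 0.85 for hair-type keratins and -0.73 for mitochondrial genes, PBS 2 at 0.31 for the cell cycle, and all libraries lie between -0.03 and 0.03 for epithelial transcription factors.

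The genes with the widest spread for their abundance were not those of the epithelial layers alone. The most variable, chosen by the log2 SD above the trend with abundance, was Chil4, a chitinase-like protein gene of mucosal surfaces, at 38.5, 17.6, 159, 10.2, 5.41 and 9.06 CPM, so that PBS 3 was far above the rest. Idi2, an isomerase gene of isoprenoid synthesis, stood at 24.9, 13.2, 9.20, 13.4, 1.93 and 8.76 CPM. Slc15a2, a peptide transporter gene, stood at 18.3, 4.97, 18.0, 6.53, 9.34 and 5.28 CPM, highest in PBS 1 and PBS 3. PBS 5 was the lowest library for Idi2, H19 (38.7 CPM against 84.2 to 139), an imprinted noncoding RNA, mt-Nd6 and the cytochrome gene Cyp2a5, and the highest for Krtap1-3 (244 CPM against 73.1 to 136) and Krtap26-1 (201 CPM against 67.3 to 98.4). Klkb1, plasma kallikrein, was low in PBS 5 and PBS 6 (6.01 and 5.28 CPM against 12.9 to 16.9), Serpine2 was highest in PBS 2 (37.1 CPM against 12.5 to 26.7), and Fos and Hbb-bs completed the 12.

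Some genes differed between libraries by little more than counting error; the 8 named are those with the smallest log2 SD relative to the trend with abundance, and other genes had a smaller CV. Cdh1, the E-cadherin gene that joins epithelial cells, stood at 491, 503, 488, 487, 490 and 495 CPM, a CV of 1.24%, where counting error alone would give 0.876%. Itm2b, a membrane protein gene, had a CV of 1.40% at 722 to 752 CPM. The other 6 were Zfp60, Tars2, Mecr, Card10, Dhx37 and Armt1, at 10.2 to 24.1 CPM with CVs of 1.22 to 2.53%, below the 3.99 to 5.97% that counting error alone would give, as the lowest of many genes will be by selection. Among the leading genes Tgm3 took 0.591 to 0.619% of counts in all 6 libraries and Perp 0.387 to 0.411%, while Krt36 took 0.330 ± 0.107%. These shares are not scaled by TMM. By CPM, which are, Perp stood apart in PBS 5 at 4387 CPM, and Krt36 ranged from 2495 to 5776 CPM.

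**Figure D5:**
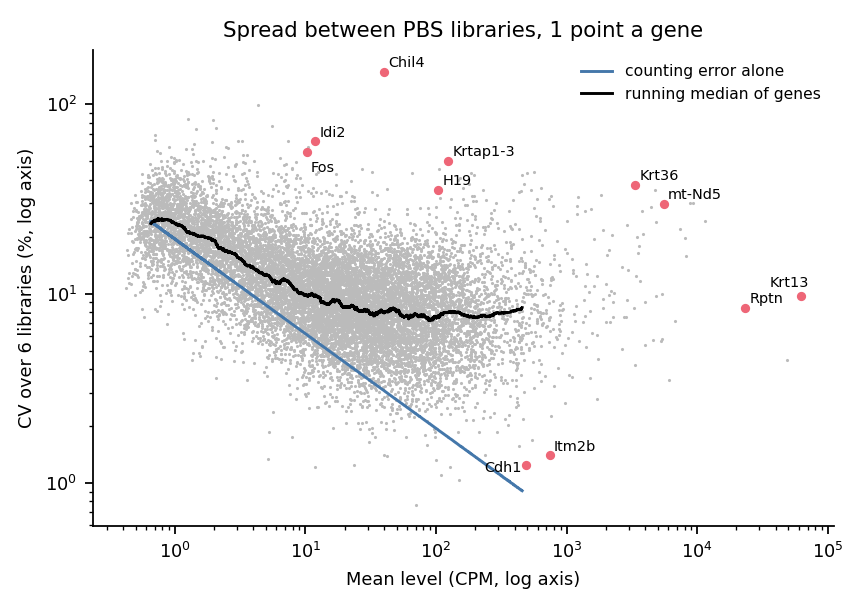
CV of CPM over the 6 PBS libraries (%, log axis) against mean CPM (log axis), 1 grey point a gene for 13133 genes; the black line is the running median and the blue line the counting error. The running median leaves the counting line as abundance rises, Chil4 stands at the top and Cdh1 and Itm2b lie near the counting line.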

How the data were processed

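RNA sequencing of 6 PBS samples of mouse tongue epithelium was analysed. The authors deposited 1 table that lists, for each gene, a count and a normalized value in every sample. Programs named in the submitters' processing notes are TopHat2 2.1.1, HTSeq 2.01, cutadapt 2.10 and DESeq2 1.36.0, with the build GRCm39; the annotation and the strand setting are not given in the sources used here, so reads of antisense or overlapping genes may be shared. As deposited, the counts are whole numbers with no scaling. The deposited normalized signal equalled the count divided by 1 size factor per sample and served only for that check. Of 55414 genes, 6250 had blank counts and were left out.

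Counts were scaled by TMM in edgeR 4.0.16 (R 4.3.3). Genes were kept by filterByExpr (minimum count 10), log2 CPM used a prior count of 2, and TPM used the longest transcript of GENCODE M21 (GRCm38), matched by gene identifier for 99.8% of the kept genes. That build differs from GRCm39, so only names, lengths and GC content were taken from it, and promoters are credited to RefSeq. The longest transcript may not be the one used. Deviations are from the median of the 6 libraries.

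Differences between genes were tested with a two-sided exact sign-flip permutation test of 18 gene pairs within libraries, with Benjamini-Hochberg adjustment over the pairs and a threshold of 0.05. A library far from the others was found with Dixon's limit of 0.625 for 6 samples. No groups were compared. The measure of spread was checked on simulated counts. Precision is the SD over 6 libraries and a floor of 3 counts, from 0.0985 to 0.137 CPM. Named genes are the 5 markers Krt13, Krt4, Rptn, Lor and Krt14, the 25 largest shares and 10 largest TPM among genes with an established symbol, the pairs, up to 4 leading members and the near-zero members of each of 42 lists, and the 12 most and 8 least variable genes of at least 10 CPM. The members, lists and pairs were chosen with earlier results of these data known. Alternatives were other denominators, scalings, filters, lengths and leaving out libraries. The other 6 samples were not used.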

Additional observations from a re-analysis of the deposited data

Results flagged for a closer look

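A library far from the other 5 was looked for in 142 values, by setting its gap to the nearest library against the whole range; chance flags about 1 in 20 such groups, the values overlap, and 23 were found, 18 of them in PBS 5. In PBS 5 the TMM factor was 0.921, and the leading 10, 50, 100 and 1000 genes held 20.9%, 34.9%, 41.4% and 68.8% of counts. Also in PBS 5, 230 genes held 50% of the counts and the effective number of genes (the exponential of the entropy of the shares) was 1381, against 1584 to 1611 elsewhere. The hair-type keratin list took 1.63% and the suprabasal list 16.6% of counts there.

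Single genes that stood apart in PBS 5 were Krt13 (73792 CPM), Krt6b (8048 CPM), Krt16 (6891 CPM), Perp (4387 CPM), Krt36 (5776 CPM), Krt84 (4861 CPM), Dsg1a (2570 CPM), Krtap1-3 (244 CPM) and Krtap26-1 (201 CPM), each the highest of the 6 libraries. In PBS 2 Serpinb3a stood at 5707 CPM, in PBS 3 S100a8 at 5.09 CPM and Chil4 at 159 CPM, and in PBS 6 Fos at 21.8 CPM, again the highest values. The melanocyte list took 0.000892% of counts in PBS 6, a level set by few reads. Over all genes whose mean reached 10 CPM, 577 (7.23%) had such a library, and for 273 of them it was PBS 5.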

How the results depend on the processing

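Counts of reads weight long transcripts, and the shares changed when length was taken out: as a share of TPM the 10 leading genes held 22.5%, the 100 leading genes 50.3%, keratins 18.9%, ribosomal proteins 7.07%, mitochondrial genes 6.43% and fused S100 genes 1.74%. Without mitochondrial genes in the denominator the 100 leading genes held 38.1%. Of the gene pairs, 5 turned with the length used: with no length correction Krt36 over Krt84 was -0.11, Krt8 over Krt18 was 0.23, Rptn over Lor was 1.04 and Itgb4 over Itga6 was 0.54 (exact permutation adjusted p = 0.0402 for both), and Grhl3 over Trp63 was -0.17, and with coding length Krt8 over Krt18 was 0.022 and Itgb4 over Itga6 was -0.20, all as log2 ratios. Leaving out each library in turn moved no result by more than the spread between libraries among those recomputed, although the SD of the hair-type keratin share fell from 0.271 to 0.0924% without PBS 5. Other scalings gave 11679 to 11709 genes at 1 CPM in all libraries and a mean spread of 0.0873 to 0.0923, against 11714 and 0.0875. No paired analysis was possible because no groups were compared. Depth limits genes near 3 counts, and 3889 genes had a count in 1 library alone.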
